A study of Mus musculus with 8 samples.

Results

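A set of 10 genes that mark the dentate gyrus and the cornu ammonis (CA) fields was followed in RNA-seq of the ventral hippocampus. The group was put together by gene name: 5 genes of dentate granule cells (*Prox1*, *C1ql2*, *Dsp*, *Calb1* and *Tdo2*), 2 of CA1 pyramidal cells (*Fibcd1* and *Wfs1*), *Neurod6* of pyramidal cells, and *Neurod2* and *Jdp2*, of which the study names *Jdp2* as a target of the mineralocorticoid receptor (MR) and the NeuroD proteins as factors bound where MR binds. All 10 were found among the 50686 genes of the deposited count table, and all 10 passed the filter on low counts that left 16018 genes to test. Each name was matched to its Ensembl identifier through the GENCODE M21 annotation of GRCm38.

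The tissue came from 8-week-old male mice of the C57B6/J strain, as the labels spell it, with 1 mouse per library. Vehicle was injected in 4 mice (replicates 1 to 4) and 3 mg/kg corticosterone, the main glucocorticoid of rodents, in 4 others (replicates 5 to 8), and all were killed 3 h later. The comparison asks which transcripts of the ventral hippocampus differ 3 h after a rise in this hormone. The libraries were made from whole tissue, so fewer cells of a type and less RNA per cell cannot be told apart in any value below.

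The hippocampus is built as a chain of excitatory neurons. The dentate gyrus, with its granule cells, is the entry to this chain and CA1 its exit, with CA3 between them, and each field keeps its own set of transcripts through adult life. Granule and pyramidal cells carry both MR, which binds corticosterone at resting levels, and the glucocorticoid receptor (GR), which is filled when the hormone rises. Both receptors act on transcription in the nucleus.

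Between 17492159 and 19931987 reads per library were counted on genes. The share of reads discarded as not uniquely aligned was 0.0699 to 0.111% with vehicle and 0.0420 to 0.0536% with corticosterone, with no overlap. *Fkbp5*, a chaperone of GR and a classic glucocorticoid-induced gene, had 1957 ± 301 normalized counts (SD, n = 4) with vehicle and 3310 ± 159 (SD, n = 4) with corticosterone. Its log2 fold change of 0.76 made it the one gene of the whole table that passed the edgeR test after Benjamini-Hochberg adjustment (adjusted p = 0.0481). The libraries also differed in how counts followed the guanine and cytosine (GC) content of transcripts. The slope of log2 counts per 10 percentage points of GC was 0.06, 0.14 and 0.18 in vehicle replicates 1 to 3 and -0.08 in vehicle replicate 4. Corticosterone replicate 5 had a slope of 0.20, and replicates 6, 7 and 8 had slopes of -0.18, -0.13 and -0.18. Corticosterone replicate 5 thus lay with vehicle replicates 2 and 3 on this scale and apart from its own group.

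None of the 10 genes passed the edgeR test, where 0.00624% of all genes tested did. At an unadjusted p under 0.05, 2 of the 10 genes were lower with corticosterone (*C1ql2* and *Neurod2*), beside 9.03% of all genes tested in either direction. DESeq2 likewise called 0 of the 10 after adjustment, beside 0.374% of the genes it tested, with 2 at an unadjusted p under 0.05, beside 8.30%. The log2 fold changes of 7 of the 10 genes were below 0, and their median was -0.10. Over all genes tested, 49.3% were below 0, the median was 0.0036, and the 5th to 95th percentiles ran from -0.34 to 0.36. *C1ql2* and *Neurod2* were the 2 members outside that range.

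*C1ql2* encodes a secreted C1q-like protein that mossy fibres release at their synapses in CA3, and lies at chr1:120340582-120343174 on the plus strand (ENSMUSG00000036907), with 2 exons. The vehicle libraries held 1411, 1498, 1601 and 1213 normalized counts, and the corticosterone libraries 1125, 1116, 1149.8 and 881. Every corticosterone library was below every vehicle library, with replicate 8 the lowest by a wide gap and vehicle replicate 4 the closest to the treated group. The means were 1431 ± 165 and 1068 ± 126 (SD, n = 4 each), a ratio of 0.746. The log2 fold change was -0.42 with a standard error of 0.103, an unadjusted p of 0.00125 and an adjusted p of 0.282 in edgeR. The exact two-sided permutation test gave p = 0.0286, the smallest that 4 against 4 allows over its 70 assignments. *C1ql2* was the 1 gene of the 10 whose groups did not overlap. Of all genes tested, 3.66% had groups that did not overlap in either direction and 1.68% had the corticosterone values all below.

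*C1ql2* transcripts are also among the richest in GC, at 63.4%, above 99.1% of the genes tested. After each library's GC trend had been removed, the log2 CPM (counts scaled to the depth of the library) of *C1ql2* were 6.10, 6.01, 6.08 and 6.18 with vehicle and 5.58, 6.17, 6.13 and 5.81 with corticosterone. Replicates 6 and 7 then lay within the vehicle range, and replicates 5 and 8 below them. The log2 fold change became -0.16 with a standard error of 0.103 (edgeR adjusted p = 0.678), and the exact permutation p was 0.371. With the trend removed *C1ql2* was still lower on average, and the separation of the groups was no longer there. The trend was fitted in each library without regard to its group. A difference between the groups shared by GC-rich transcripts would be removed with it, and trend and treatment cannot be told apart by this fit. Across the 8 libraries, the Pearson r of *C1ql2* with the GC slope was 0.70 (exact permutation p = 0.0603), and Spearman's rho was 0.62 (exact p = 0.115). Adjusted over the 10 genes, these p values were 0.101 and 0.192. Without vehicle replicate 3 and corticosterone replicate 5, the 2 libraries of most extreme slope (farthest from the median), r was 0.89. In the libraries left, every vehicle slope was above every corticosterone slope, so that slope and treatment cannot be told apart there. In the plot of pairs of values, corticosterone replicate 5 combined the highest slope with a *C1ql2* level below every vehicle library.

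The promoter of *C1ql2* is shown because it is the 1 gene with separated groups. The bases are those before the start site in RefSeq (GRCm38.p6), written 5′ to 3′ on the gene's own strand, and capitals mark each E-box (CANNTG, read on both strands), the hexamer that basic helix-loop-helix (bHLH) factors such as the NeuroD proteins bind.
C1ql2, chr1:120340332-120340581, plus strand: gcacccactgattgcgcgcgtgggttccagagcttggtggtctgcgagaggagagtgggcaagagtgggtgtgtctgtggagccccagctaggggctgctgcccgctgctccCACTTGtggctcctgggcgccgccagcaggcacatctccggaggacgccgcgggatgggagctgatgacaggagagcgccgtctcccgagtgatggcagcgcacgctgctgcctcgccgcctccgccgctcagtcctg
A single E-box, CACTTG, lies from 138 to 133 bases before the start.

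The other 4 granule cell genes did not differ between the groups beyond the spread between mice. *Prox1* (ENSMUSG00000010175, chr1:190118035-190170714, minus strand) encodes the homeodomain factor that sets and keeps granule cell fate. Its normalized counts were 1685, 1380.1, 1647 and 1887 with vehicle and 1254, 1770.4, 1944 and 1687 with corticosterone. Corticosterone replicate 5 was the lowest of the 8 libraries and replicate 7 the highest, so that the treated group spanned the vehicle group. Means of 1649.8 ± 208 and 1664 ± 294 (SD, n = 4 each) gave a log2 fold change of 0.01 with a standard error of 0.125 (edgeR adjusted p = 0.976). *Calb1* (ENSMUSG00000028222, chr4:15881264-15908064, plus strand) encodes calbindin, the calcium buffer that fills mature granule cells and many CA1 cells. It had 2686, 2575, 2587 and 2716 normalized counts with vehicle and 2308, 3129.7, 2978 and 2643 with corticosterone. The vehicle libraries were nearly alike, and the corticosterone libraries lay on both sides of them. The coefficient of variation was 2.67% with vehicle and 13.2% with corticosterone. Among 14789 genes with at least 1 CPM, 3.07% had a smaller SD than *Calb1* in the vehicle group. This gave a log2 fold change of 0.07 with a standard error of 0.0886 (edgeR adjusted p = 0.779), which was 0.14 without corticosterone replicate 5 and 0.0013 without replicate 6, with no call in either.

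*Dsp* (ENSMUSG00000054889, chr13:38151294-38198577, plus strand) encodes desmoplakin, a linker between cell junctions and intermediate filaments that in the hippocampus marks granule cells. Its normalized counts were 619, 311, 580.0 and 426 with vehicle and 467, 359, 627 and 448 with corticosterone. Both groups covered almost the same span, with vehicle replicate 2 lowest and corticosterone replicate 7 highest. In the vehicle group, 96.3% of the 14789 genes had a smaller SD than *Dsp*. *Dsp* had a log2 fold change of -0.03 with a standard error of 0.203 (edgeR adjusted p = 0.968), so that the spread between mice left this estimate the widest of the 10. *Tdo2* (ENSMUSG00000028011, chr3:81957090-81976202, minus strand) encodes tryptophan 2,3-dioxygenase, the first enzyme of the kynurenine pathway, which in liver is a classic glucocorticoid-induced gene. It had 118, 92.1, 95.9 and 91.8 normalized counts with vehicle and 81.9, 80.3, 114 and 112 with corticosterone. Corticosterone replicates 5 and 6 were below every vehicle library, and replicates 7 and 8 were close to the highest vehicle library. For *Tdo2*, the log2 fold change was -0.04 with a standard error of 0.162 (edgeR adjusted p = 0.942). Exons of *Prox1* overlap *Prox1os* by 133 bases and exons of *Dsp* overlap *Gm10129* by 499 bases, both on the opposite strand. The strand setting of the counting is not given in the sources used here, so that a small part of these counts may belong to the partner.

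**Figure D1:**
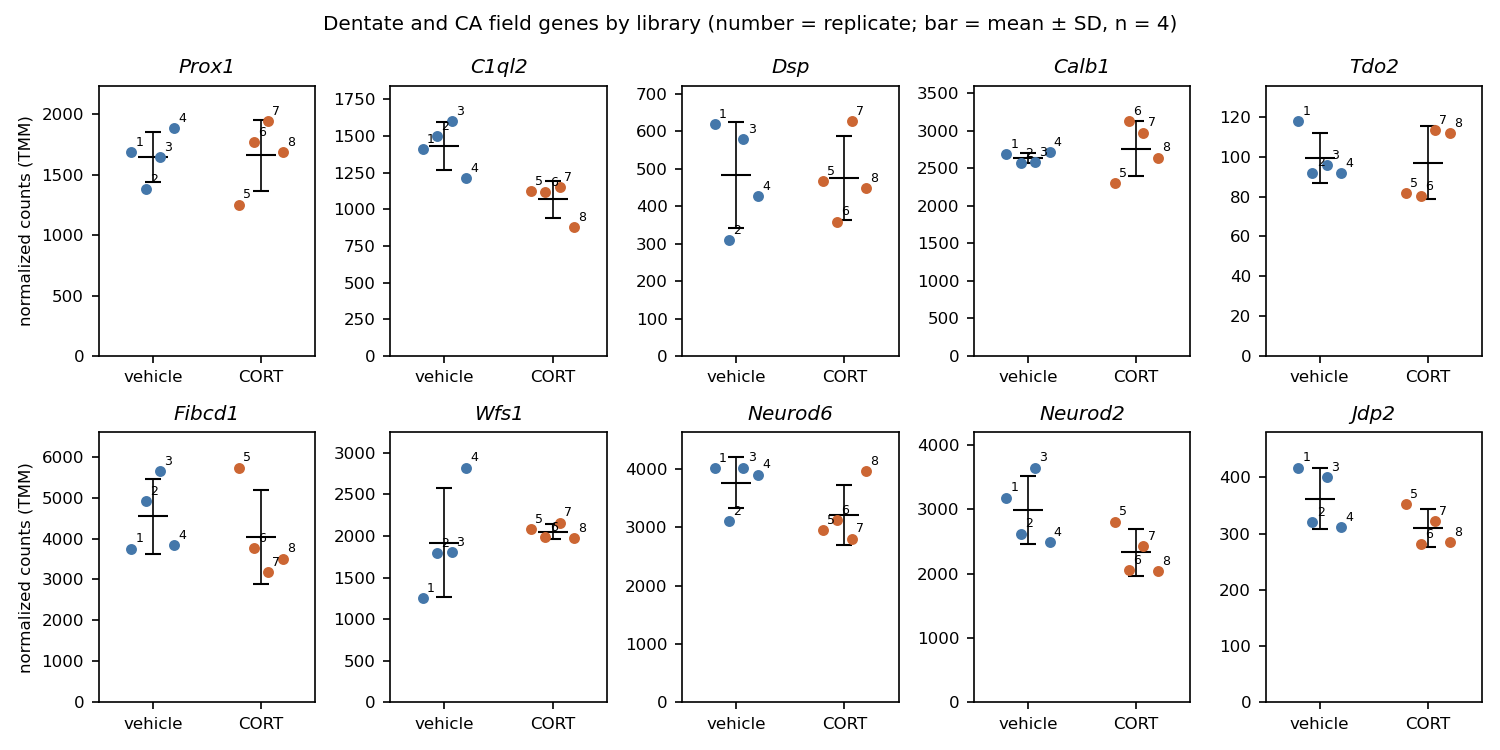
Normalized counts (TMM) of the 10 genes in each library, with the replicate number beside each point and bars for mean ± SD of 4 libraries per group; each panel has its own linear axis from 0. The corticosterone points of *C1ql2* (881 to 1149.8) lie below all vehicle points (1213 to 1601), and the groups of the other 9 genes overlap.

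Of the pyramidal cell genes, both CA1 markers varied widely between mice. *Fibcd1* (ENSMUSG00000026841, chr2:31813290-31846005, minus strand) encodes a transmembrane receptor for acetylated sugars and in brain is largely a CA1 gene. Its normalized counts were 3755, 4918, 5643 and 3840.3 with vehicle and 5728, 3769, 3179 and 3512 with corticosterone. Corticosterone replicate 5 was the highest of the 8 libraries, while replicates 7 and 8 were below every vehicle library. *Fibcd1* had a log2 fold change of -0.17 with a standard error of 0.173 (edgeR adjusted p = 0.720) and became -0.38 without corticosterone replicate 5 (adjusted p = 0.0582), -0.047 without vehicle replicate 3 (adjusted p = 0.968) and -0.066 without corticosterone replicate 7 (adjusted p = 0.935). With the GC trend removed it was -0.02 (adjusted p = 0.975); *Fibcd1* transcripts have 59.4% GC. *Wfs1* (ENSMUSG00000039474, chr5:36966104-36989205, minus strand) encodes wolframin, a membrane protein of the endoplasmic reticulum, and in the hippocampus is known as a marker of dorsal CA1. The vehicle libraries held 1256, 1793, 1801 and 2818 normalized counts, and the corticosterone libraries 2082, 1981, 2159.8 and 1972. The vehicle libraries were spread over more than the whole range of the treated ones, with a coefficient of variation of 34.0% against 4.36%. In the vehicle group, 96.9% of the 14789 genes had a smaller SD than *Wfs1*. *Wfs1* had a log2 fold change of 0.10 with a standard error of 0.175 (edgeR adjusted p = 0.843). It was 0.34 without vehicle replicate 4 and -0.06 without vehicle replicate 1, with no call in either.

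*Neurod6* (ENSMUSG00000037984, chr6:55677822-55681263, minus strand) encodes a bHLH factor of pyramidal neurons. It had 4002, 3105, 4015 and 3896 normalized counts with vehicle and 2945, 3112, 2803 and 3956 with corticosterone. In each group 1 library stood apart from the other 3: vehicle replicate 2 lay at the level of corticosterone replicates 5 to 7, and corticosterone replicate 8 at that of the other vehicle libraries. The means were 3754 ± 436 and 3204 ± 517 (SD, n = 4 each). The log2 fold change was -0.23 with a standard error of 0.113, an unadjusted p of 0.0635 and an adjusted p of 0.545 in edgeR. The transcripts of *Neurod6* are low in GC, at 41.9%, and with the GC trend removed its log2 fold change was -0.34 with a standard error of 0.0976. That value had an unadjusted p of 0.00377 and an adjusted p of 0.257 in edgeR, and an exact permutation p of 0.0571. It was the lowest of the 10 log2 fold changes in that fit, in which *Neurod2* and *Neurod6* were the 2 members at an unadjusted p under 0.05, beside 9.17% of all genes tested, and 0 of the 10 passed after adjustment, beside 0.106% of all genes.

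*Neurod2* (ENSMUSG00000038255, chr11:98325415-98329648, minus strand) encodes a bHLH factor found throughout excitatory neurons of the forebrain, with roles in their differentiation and in synapse formation. Its normalized counts were 3186, 2623, 3649 and 2497 with vehicle and 2809, 2061, 2426 and 2044 with corticosterone. Corticosterone replicates 6, 7 and 8 were below every vehicle library, and replicate 5 lay inside the vehicle range. The means were 2989 ± 533 and 2335 ± 362 (SD, n = 4 each), a ratio of 0.781. The log2 fold change was -0.36 with a standard error of 0.129, an unadjusted p of 0.0161 and an adjusted p of 0.499 in edgeR, and the exact permutation p was 0.114. With the GC trend removed it was -0.21 with a standard error of 0.0865 (edgeR unadjusted p = 0.0274, adjusted p = 0.490).

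*Jdp2* (ENSMUSG00000034271, chr12:85599027-85639878, plus strand) encodes a leucine zipper protein of the AP-1 family that pairs with Jun and mostly represses AP-1 sites. It had 417, 320.3, 400.1 and 312 normalized counts with vehicle and 353, 282, 323 and 285 with corticosterone. Corticosterone replicates 6 and 8 were below every vehicle library, and the other pair lay inside the vehicle range. The means were 362 ± 54.0 and 311 ± 33.5 (SD, n = 4 each). For *Jdp2*, this was a log2 fold change of -0.22 with a standard error of 0.121, an unadjusted p of 0.0904 and an adjusted p of 0.550 in edgeR. With the GC trend removed it was -0.12 with a standard error of 0.0993 (edgeR adjusted p = 0.769). Exons of *Jdp2* overlap *Gm47863* on the opposite strand by 165 bases. The MR gene *Nr3c2* had a log2 fold change of -0.23 (edgeR adjusted p = 0.512) and the GR gene *Nr3c1* one of -0.21 (adjusted p = 0.546).

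Leaving out corticosterone replicate 5, the treated library whose GC slope lay within 0.14 to 0.20 with vehicle replicates 2 and 3, changed the outcome for 2 of these genes. The edgeR test then called 10.2% of all genes, 1651 of 16181, and 2 of the 10 members. *C1ql2* had a log2 fold change of -0.45 (adjusted p = 0.0222) and *Neurod2* one of -0.46 (adjusted p = 0.0288), and both had groups that did not overlap, as did 24.3% of all genes in this comparison of 4 with 3 libraries. The 3 corticosterone libraries left in that fit all had slopes of -0.13 or lower, and the part of the slopes in these calls was not tested. Without any other single library, 0 of the 10 genes were called by edgeR.

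**Figure D2:**
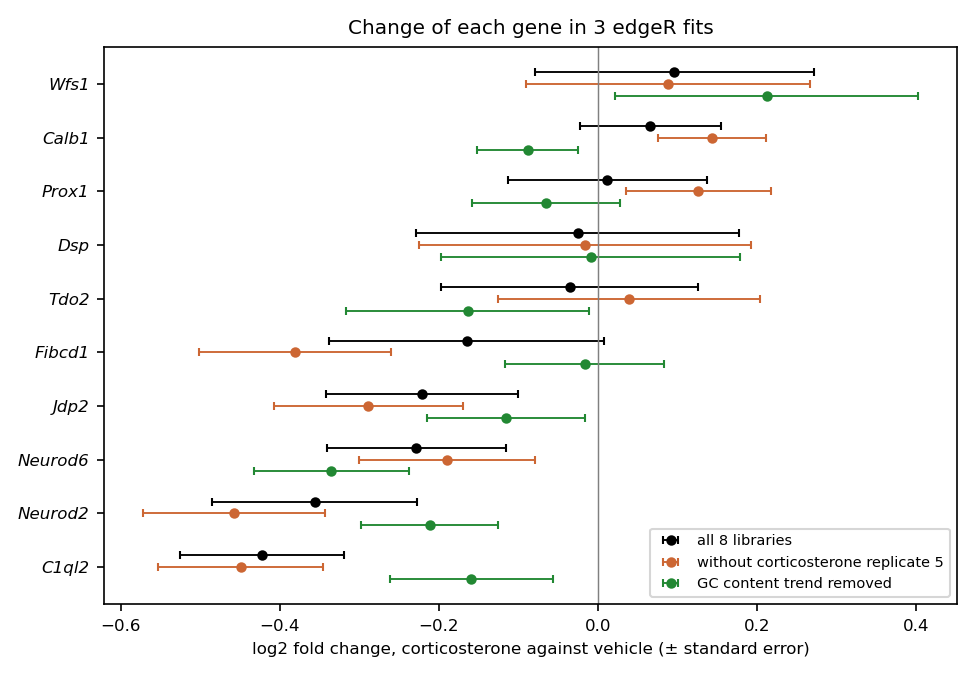
Log2 fold change of each gene, corticosterone against vehicle, with its standard error in 3 edgeR fits: all 8 libraries (black), without corticosterone replicate 5 (orange) and with the GC content trend removed (green). *C1ql2* moves from -0.42 to -0.16 when the trend is removed, *Neurod6* from -0.23 to -0.34, and *Neurod2* stays below 0 in all 3 fits.

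The levels of the genes were compared per kilobase of exon, as CPM per kilobase in the vehicle group. *Neurod6* had the highest level, 91.1 ± 10.6 (SD, n = 4), with all 4 vehicle libraries above those of every other member. *Fibcd1* (49.8 ± 9.95) and *Neurod2* (49.6 ± 8.84) could not be ordered, and *C1ql2* (37.3 ± 4.29) overlapped *Neurod2*. All *Calb1* libraries (28.4 ± 0.757) were below those of *C1ql2*, and *Calb1* overlapped *Wfs1* (26.4 ± 8.99), whose libraries were all above those of the next gene. *Prox1* (10.3 ± 1.29) and *Jdp2* (8.80 ± 1.31) formed the next overlapping pair. *Dsp* (2.61 ± 0.769) and *Tdo2* (1.34 ± 0.167) were lowest and separate from each other. The 2 transcription factors *Prox1* and *Jdp2* were thus well below the bHLH factors *Neurod6* and *Neurod2* per length. The ratio of *C1ql2* to *Prox1* per kilobase was 3.51, 4.55, 4.08 and 2.70 in the vehicle libraries and 3.76, 2.65, 2.48 and 2.19 in the corticosterone libraries, the highest being 2.08 times the lowest. With the GC trend removed, the highest was 1.27 times the lowest.

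**Figure D3:**
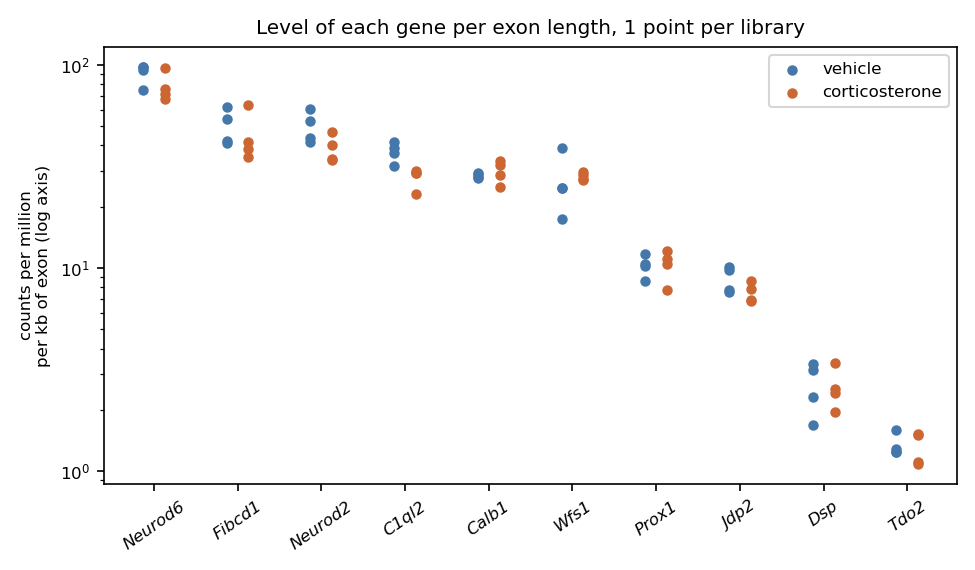
Level of each gene in CPM per kilobase of exon, on a log axis, with 1 point per library (blue vehicle, orange corticosterone) and the genes in order of their vehicle mean. The levels run from 91.1 for *Neurod6* to 1.34 for *Tdo2*, and the points of neighbours such as *Fibcd1* and *Neurod2* share the same range.

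*Neurod2* and *Jdp2* followed each other between mice more closely, by Pearson r, than any other of the 45 pairs. In log2 CPM over the 8 libraries, the Pearson r was 0.95 (exact permutation p = 0.00067, adjusted over the 45 pairs 0.0301), and Spearman's rho was 0.88 (exact p = 0.00724, adjusted 0.163). Without the 2 libraries farthest from the median of the first gene named in a pair, here *Neurod2*, r was 0.96. The r of the deviations from the group means was 0.94, so that the relation was also present within the groups. Vehicle replicates 1 and 3 were high for both genes and corticosterone replicates 6 and 8 low for both. Among the 14786 other genes with at least 1 CPM, each symbol taken once, *Jdp2* was in place 43 of those most like *Neurod2*, and *Neurod2* in place 18 of those most like *Jdp2*, so that many genes followed the same order of libraries. Their transcripts have 58.7% and 56.8% GC. With the GC slope, the r of *Jdp2* was 0.73 (exact permutation p = 0.05, adjusted over the 10 genes 0.1) and rho 0.74 (exact p = 0.0458, adjusted 0.0917), with r = 0.64 without the 2 libraries of most extreme slope; *Neurod2* is given with the other genes below. With the trend removed, r was 0.90 (exact permutation p = 0.00382, adjusted 0.136) and rho 0.88 (exact p = 0.00724, adjusted 0.326), with r = 0.82 without the 2 farthest libraries.

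The highest rho among the pairs, 0.90, was that of the granule cell genes *Prox1* and *Calb1* (exact p = 0.00456, adjusted 0.163), with r = 0.80 (exact permutation p = 0.0171, adjusted 0.236) and r = 0.56 without the 2 farthest libraries. With the GC trend removed, r of this pair was 0.10 (exact permutation p = 0.812, adjusted 0.914) and rho 0.12 (exact p = 0.793, adjusted 0.892), with r = 0.40 without the 2 farthest libraries.

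The relation of each gene to the GC slope was computed for all 10. The Pearson r was 0.89 for *Fibcd1* (exact permutation p = 0.00481), 0.82 for *Neurod2* (exact p = 0.0123) and -0.78 for *Calb1* (exact p = 0.0116), each with an adjusted p of 0.0409. Spearman's rho was 0.79, 0.86 and -0.83 for these genes, each with an adjusted exact p of 0.0698. Without the 2 libraries of most extreme slope, vehicle replicate 3 and corticosterone replicate 5, r was 0.76, 0.79 and -0.63. Slope and treatment cannot be told apart in the libraries left. *Calb1* has the lowest GC content of the 10, at 36.8%, and *Fibcd1* and *Neurod2* lie above 94.4% and 92.7% of the genes tested. *Prox1*, at 45.3% GC, had r = -0.75 (exact permutation p = 0.0248, adjusted 0.0621) and rho = -0.79 (exact p = 0.0279, adjusted 0.0698), with r = -0.73 without the 2 most extreme libraries. For *Wfs1*, which is rich in GC at 57.8%, r was -0.34 (exact permutation p = 0.453, adjusted 0.647) and rho -0.24 (exact p = 0.582, adjusted 0.832), with r = -0.50 without the 2 most extreme libraries. The r of *Neurod6*, *Dsp* and *Tdo2* was -0.0011, 0.070 and -0.23, with exact permutation p values of 0.997, 0.856 and 0.571 (adjusted 0.997, 0.951 and 0.714). Their rho was 0.048, 0.17 and -0.024, with exact p values of 0.935, 0.703 and 0.977 (adjusted 0.977, 0.879 and 0.977), and r without the 2 most extreme libraries was 0.039, -0.17 and 0.088.

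The relation of the pair *Prox1* and *C1ql2*, both granule cell genes, was computed with and without this trend. With the counts as deposited, r was -0.17 (exact permutation p = 0.673, adjusted 0.884) and rho -0.31 (exact p = 0.462, adjusted 0.717), and r was -0.25 without the 2 farthest libraries. With the trend removed, r was 0.83 (exact permutation p = 0.0157, adjusted 0.235) and rho 0.76 (exact p = 0.0368, adjusted 0.414), and r was 0.73 without the 2 farthest libraries. Neither value passed after adjustment over the 45 pairs. In the values with the trend removed, corticosterone replicate 5 was the lowest of the 8 libraries for both genes, at 6.11 for *Prox1* and 5.58 for *C1ql2* in log2 CPM.

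**Figure D4:**
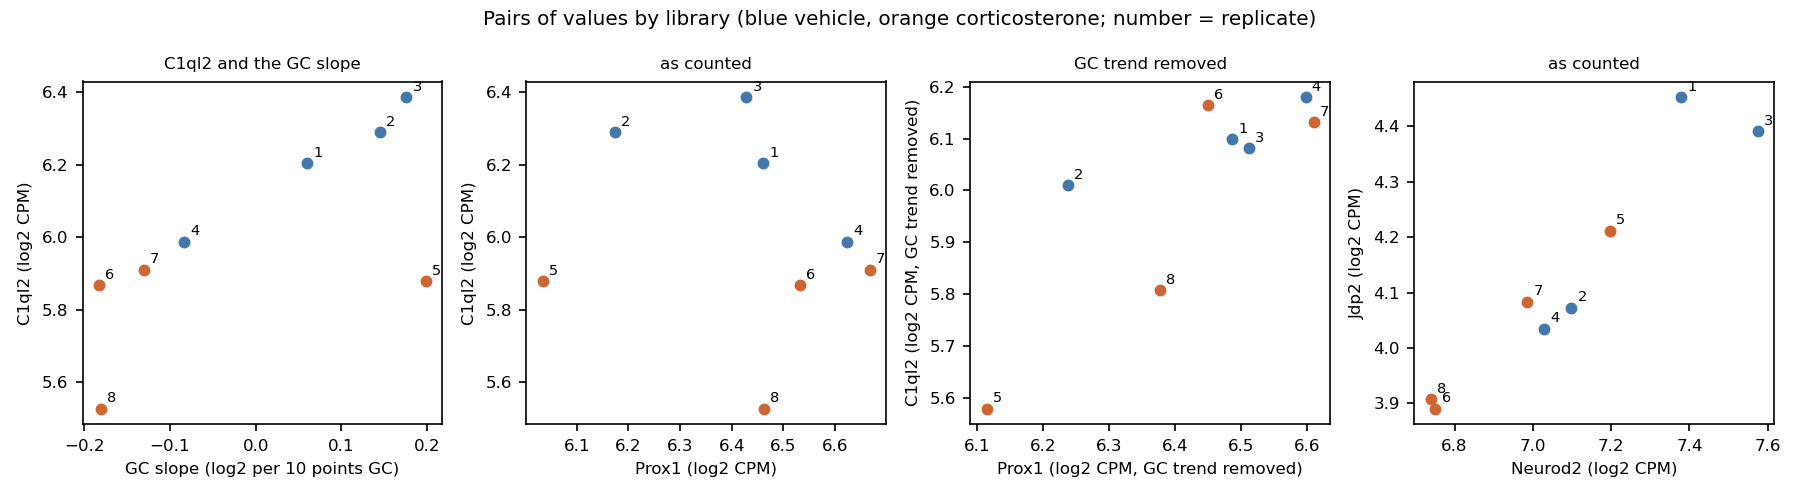
Values by library (blue vehicle, orange corticosterone, number for the replicate), from left to right: *C1ql2* in log2 CPM against the GC slope of the library, *Prox1* against *C1ql2* as deposited, the same pair with the GC trend removed, and *Neurod2* against *Jdp2* as deposited. The Pearson r of the last 3 panels is -0.17, 0.83 and 0.95.

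The promoters of the 2 bHLH genes and of *Jdp2* are given for the pair that moved together and for the gene that led the fit with the trend removed. They come from RefSeq (GRCm38.p6), are written 5′ to 3′ on each gene's strand, and carry E-boxes in capitals. The last 3 bases before the RefSeq start of *Neurod2* and the last 78 before that of *Jdp2* lie inside the GENCODE gene and were searched but are not shown.
Neurod2, chr11:98329649-98329895, minus strand: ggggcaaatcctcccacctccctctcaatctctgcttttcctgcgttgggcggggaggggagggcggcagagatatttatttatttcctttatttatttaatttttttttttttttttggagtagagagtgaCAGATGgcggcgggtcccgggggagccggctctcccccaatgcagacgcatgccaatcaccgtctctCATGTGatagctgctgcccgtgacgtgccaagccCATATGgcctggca
Neurod6, chr6:55681264-55681513, minus strand: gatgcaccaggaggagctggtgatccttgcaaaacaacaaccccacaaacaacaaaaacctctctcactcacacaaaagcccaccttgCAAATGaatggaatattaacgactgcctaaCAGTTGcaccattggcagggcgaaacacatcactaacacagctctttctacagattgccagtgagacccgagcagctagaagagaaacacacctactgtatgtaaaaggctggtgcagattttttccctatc
Jdp2, chr12:85598855-85599026, plus strand: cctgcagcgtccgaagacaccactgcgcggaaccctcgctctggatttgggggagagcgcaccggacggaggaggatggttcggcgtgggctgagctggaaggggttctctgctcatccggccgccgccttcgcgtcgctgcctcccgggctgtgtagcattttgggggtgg
The *Neurod2* stretch holds 3 E-boxes, of which CAGATG, at 118 to 113 bases before the start, is the form that NeuroD proteins are known to bind. The others are CATGTG from 51 and CATATG from 17 bases before the start. *Neurod6* has CAAATG from 162 and CAGTTG from 132 bases before its start, and *Jdp2* has none in the 250 bases searched. Of the 9 members in the promoter table, 5 had an E-box, and of all 32817 promoters in it 66.2% did. The NeuroD form CAGATG, on either strand and counted within the E-boxes, was in 3 of the 9 (*Neurod2*, *Prox1* and *Wfs1*) and in 14.5% of all promoters. The RefSeq starts of *Prox1* and *Wfs1* lie 113 and 223 bases from the GENCODE gene starts and that of *Tdo2* lies 474 bases away. The *Wfs1* match, at -170 from the RefSeq start, falls inside the GENCODE gene, and the bases at the RefSeq start of *Prox1* were not found in its GENCODE transcripts. The glucocorticoid response element was searched as its arms GNACA and TGTNC with 3 bases between them, the AP-1 site as TGANTCA and the CRE as TGACGTCA, on both strands. None of these 3 was in the 9 stretches, and they were in 0.387%, 6.75% and 1.55% of all promoters. The study states that GR often binds farther from the starts of its targets. A search of 250 bases therefore cannot show whether a member has a receptor site. *Calb1* is not among the 9.

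The members were also read against wider lists of field genes. Of 13 granule cell genes, all of them tested, 0 were called by edgeR, with 1 higher (*Dock10*, 0.27, the largest log2 fold change) and 3 lower at an unadjusted p under 0.05 (*C1ql2*, *Lct* and *Plk5*), beside 9.03% of all genes tested in either direction. *Plk5* had the lowest value, -0.48, and the median was -0.03, beside 0.0036 over all genes. *Calb1* and *C1ql3*, the most highly counted of the list, had log2 fold changes of 0.07 and 0.02. Genes of immature granule neurons (6 tested, 0 called, 0 at an unadjusted p under 0.05) had a median of 0.03, from -0.05 for *Draxin* to 0.25 for *Eomes*, and *Neurod1* and *Sox11* were at 0.04 and 0.05. The 3 mossy cell genes *Calb2*, *Drd2* and *Calcrl* had 0.08, 0.04 and 0.20, with 0 called and 0 at an unadjusted p under 0.05.

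For the CA1 list, 0 of 8 genes were called and the median was -0.04, from -0.50 for *Pou3f1*, a POU factor (edgeR unadjusted p = 0.0138), to 0.15 for *Etv1*. *Mpped1*, the most highly counted, had -0.10. The CA2 list had 0 of 6 called and a median of -0.02, with *Rgs14*, a brake on synaptic plasticity in CA2, at -0.32 (edgeR unadjusted p = 0.0399), *Amigo2* at 0.29 (unadjusted p = 0.0168) and *Pcp4* at 0.48 (unadjusted p = 0.0710). The CA3 list had 0 of 6 called and a median of -0.04, with *Coch* highest at 0.62 (edgeR unadjusted p = 0.0216) and *Bok* lowest at -0.25, and with *Cpne4* and *Grik4* at -0.03 and -0.06. Along the long axis, 4 genes of the dorsal pole had a median of 0.04 and 7 of the ventral pole one of 0.15, with 0 called in either. *Lct* of the dorsal list was at -0.48 and *Spink8* at 0.10, with *Ccn3* at -0.01. In the ventral list *Dcn* was at 0.54 (edgeR unadjusted p = 0.0381), *Coch* again highest, and *Htr2c* lowest at -0.01.

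The bHLH family of *Neurod2* and *Neurod6* was read with its partners and inhibitors. Of 13 genes 12 were tested, 0 were called by edgeR, and 3 were lower at an unadjusted p under 0.05 (*Neurod2*, *Tcf3* and *Id3*, the second named after its value was seen), beside 9.03% of all genes tested. *Id3*, an inhibitor that binds bHLH proteins without DNA contact, had the lowest log2 fold change, -0.61, and *Id4* the highest, 0.07, while the highly counted *Tcf4* was at -0.02. The median was -0.06. Of 13 AP-1 genes 8 were tested and 0 called, with 1 lower at an unadjusted p under 0.05 (*Fosb*, -0.29, named after its value was seen), beside the same 9.03%. Their median was -0.27, from -0.44 for *Junb* to 0.10 for *Atf2*, and *Jun* was at -0.25.

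Markers of other cells were summed as CPM per kilobase to describe what else the tissue held. The 6 genes of excitatory neurons, *Neurod2* and *Neurod6* among them, were all below 0 with a median log2 fold change of -0.21 and 0 called. The 4 that are not members had a median of -0.14. The sum of the 6 genes was 1732 to 2312 with vehicle and 1602 to 1984 with corticosterone. The 5 genes of all neurons had a median of -0.0041 and sums of 779.8 to 829 with vehicle and 788 to 836 with corticosterone. Oligodendrocyte genes (5 of 5 below 0, median -0.24, 0 called) summed to 464 to 814 with vehicle, the highest in replicate 1, and 459.9 to 549 with corticosterone. Microglial genes (4 of 5 below 0, median -0.36, 0 called) summed to 110.5 to 117 with vehicle and 93.6 to 109 with corticosterone, with no overlap. Genes of GABAergic neurons had a median of -0.01 with 0 called, and their sum, most of it *Sst* (-0.24), was 475 to 585 with vehicle and 421 to 434 in 3 corticosterone libraries, with 613 in replicate 5. Astrocyte genes (median -0.07, 0 called) summed to 204 to 232 with vehicle and 196 to 212 with corticosterone. Endothelial genes (4 of 4 below 0, median -0.15, 0 called) summed to 16.2 to 22.1 with vehicle and 12.2 to 17.3 with corticosterone. Of neighbouring tissues, choroid plexus genes summed to 5.07 to 40.4 with vehicle (median 14.01) and 12.3 to 41.4 with corticosterone (median 29.3), with *Clic6* highest at 1.16 (edgeR unadjusted p = 0.00705, adjusted p = 0.443). Thalamic genes had median sums of 9.16 with vehicle and 10.1 with corticosterone, striatal genes 20.7 and 21.4, and genes of deep cortex and subiculum had median sums of 33.0 with vehicle and 30.3 with corticosterone. The part of these differences in the values of the 10 genes was not tested.

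For each member the genes most like it between mice were named by Pearson r of log2 CPM over the 8 libraries, as a description. These were *Creld2* and *Atp5g1* for *C1ql2* (both 0.96), *Utp15* (0.97) and *Sv2c* (0.96) for *Prox1*, and *Gfra2* (0.97) and *Adamtsl5* (0.95) for *Dsp*. *Tm9sf3* and *2700049A03Rik* were closest to *Calb1* (both 0.97), and *Ncald* (0.96) and *Tnfrsf22* (0.94) to *Tdo2*. The CA1 genes *Fibcd1* and *Wfs1* had different neighbours, *Rhof* (0.99) and *Ptpru* (0.98) for *Fibcd1* and *Cmtm4* (0.97) and *Dnajc1* (0.96) for *Wfs1*. *Neurod6* was followed by *Nrp1* (0.96) and *Zeb2* (0.93), *Neurod2* by *Iqsec2* and *Kcnc1* (both 0.98), and *Jdp2* by *Csnk1d* (0.99) and *Camk2b* (0.98). No member was among the 2 nearest genes of another. All points share the depth and GC slope of their library.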

How the data were processed

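RNA from the ventral hippocampus of 8 mice (4 vehicle, 4 corticosterone; 1 library each) was sequenced from stranded mRNA libraries. Alignment to mm10 was with GSnap and counting with HTSeq-count; the authors deposited the raw counts, which are whole numbers with no scaling. The annotation release and strand setting are not given in the sources used here. Groups came from the sample labels, and 0 columns were left out. The 5 rows that name no gene held 13.7 to 15.4% of all counts per library and were left out. Of 50686 gene identifiers, 50462 were found in GENCODE M21 (GRCm38).

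Counts were normalized with TMM, filtered by filterByExpr and compared by edgeR's quasi-likelihood test (version 4.0.16) under R 4.3.3, with Benjamini-Hochberg adjustment over 16018 genes and a threshold of 0.05. Each standard error was the size of the log2 fold change divided by the square root of its F statistic. Log2 CPM used a prior count of 2 and entered an exact two-sided permutation test over the 70 splits of 4 against 4. These p values measure the spread between the mice of 1 experiment. GC content was taken from GENCODE transcripts, and the trend of each library with it was removed as an offset (spline, 5 degrees of freedom), an alternative chosen after seeing the data. It had a GC value for 15983 genes. Promoters came from RefSeq, where 9 of the 10 members matched.

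Alternatives were DESeq2 (the tool of the study; here version 1.42.0), DESeq2 size factors and upper-quartile factors in edgeR, no filter, at least 10 counts in every library, limma-voom (limma 3.58.1), 1 surrogate variable (sva 3.50.0), a prior count of 0.5 and each library left out. On simulated counts of the corticosterone comparison (15862 genes tested), edgeR recovered 100% of the genes given a log2 change of 1 and 72% of the genes given 0.5, and 2.27% of its calls were false. The simulated libraries had no GC trend, and changes were given only to genes above a minimum count. These shares therefore need not hold for the real libraries. The members and gene lists were chosen with earlier results of these data known. All members were named, with *Fkbp5*, *Nr3c1* and *Nr3c2*, in each list the 2 most highly counted genes and the highest and lowest log2 fold change, and the 2 genes most like each member.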

Additional observations from a re-analysis of the deposited data

Results flagged for a closer look

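In 20 sets of 4 values (10 genes in 2 groups), the library farthest from the others was compared with the whole range of its set by Dixon's ratio. Chance alone marks about 1 in 20 such sets, and 3 were marked. Corticosterone replicate 8 had 881 normalized counts of *C1ql2*, with the other corticosterone libraries between 1116 and 1149.8. Vehicle replicate 1 had 118 normalized counts of *Tdo2*, with the other vehicle libraries between 91.8 and 95.9. Vehicle replicate 2 had 3105 normalized counts of *Neurod6*, with the other vehicle libraries between 3896 and 4015. Without corticosterone replicate 8, the log2 fold change of *C1ql2* was -0.34 (edgeR adjusted p = 0.593). Without vehicle replicate 1, that of *Tdo2* was 0.05 (edgeR adjusted p = 0.923), and without vehicle replicate 2, that of *Neurod6* was -0.31 (edgeR adjusted p = 0.682).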

How the results depend on the processing

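*C1ql2*, *Neurod2*, *Neurod6* and *Jdp2* kept a log2 fold change below 0 in all 16 alternative fits, the removal of the GC trend included, and the other 6 genes changed sign at least once. With 1 library left out at a time, *C1ql2* ran from -0.50 to -0.34, *Neurod2* from -0.46 to -0.25, *Neurod6* from -0.35 to -0.17 and *Jdp2* from -0.29 to -0.15. With 1 surrogate variable, the 4 were -0.31, -0.17, -0.31 and -0.10, and with the GC trend removed -0.16, -0.21, -0.34 and -0.12. The sign turned for *Prox1* with 1 surrogate variable (-0.21), with the GC trend removed (-0.065) and without vehicle replicate 2 (-0.065) or corticosterone replicates 6 (-0.019) or 7 (-0.072), and left-out fits of *Prox1* ran from -0.072 to 0.13. It turned for *Dsp* with 1 surrogate variable (0.0057) and without vehicle replicates 1 (0.11) or 3 (0.070) or corticosterone replicate 6 (0.087), with left-out fits from -0.19 to 0.11. It turned for *Calb1* with 1 surrogate variable (-0.059) and the GC trend removed (-0.088; left-out fits from 0.0013 to 0.14), for *Tdo2* without vehicle replicate 1 (0.053) or corticosterone replicates 5 (0.039) or 6 (0.043; left-out fits from -0.12), for *Wfs1* with 1 surrogate variable (-0.0031) and without vehicle replicate 1 (-0.064; left-out fits up to 0.34), and for *Fibcd1* with 1 surrogate variable (0.13; left-out fits from -0.38 to -0.047). The cause was not tested. The number of genes called, 1 as reported, was 63 with DESeq2, 79 with no filter, 0 with at least 10 counts in every library (1330 at an unadjusted p under 0.05), 2 with 1 surrogate variable and 17 with the GC trend removed, and ran from 0 to 1651 with 1 library left out, with 19 without vehicle replicate 1. The number of members called, 0 as reported, was 1 with no filter (*C1ql2*, adjusted p = 0.0245 in edgeR) and ran from 0 to 2 with 1 library left out. The adjusted p of *C1ql2* ran from 0.0222 to 0.798 over all alternatives and was 0.0512 with DESeq2, and that of *Neurod2* ran from 0.0288 to 0.919. The number of members whose groups did not overlap, 1 as reported, was 0 with the GC trend removed (4.28% of all genes) and 1 to 2 with 1 library left out, with *Wfs1* added without vehicle replicate 4 (9.16% of all genes) and *Neurod2* without corticosterone replicate 5 (24.3%). A prior count of 0.5 moved no exact permutation p across 0.05. No paired analysis was possible because replicates 1 to 4 and 5 to 8 have no number in common. The standard errors of the 10 genes, 0.0886 to 0.203 on the log2 scale, set the precision that 4 mice per group gave, and *Tdo2*, with 74 to 120 reads per library, was the least deeply counted.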
